A study of Homo sapiens with 6 samples.

Results

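Integrins and laminins were examined as 38 protein-coding genes, out of 58735 genes in the deposited table, whose symbols name an integrin alpha subunit (18 genes), an integrin beta subunit (8 genes) or a laminin chain (12 genes). The rule reads symbols and gene biotype alone. MG63, an established human osteosarcoma cell line, had been transfected with siRNA against FUBP1 (siFUBP1, 3 samples) or with a negative control (siMock, 3 samples), and RNA was taken 48 h later and sequenced from poly(A) mRNA. FUBP1 encodes a nucleic acid-binding protein that acts on transcription and splicing. The comparison asks which transcripts differ when FUBP1 is silenced, and the labels name no other treatment. All 6 samples come from this cell line, no allele or genotype distinguishes them, and nothing in the labels says that replicates were separate cultures, so the p-values measure the spread between these samples, which may be technical.

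An integrin is a heterodimer of 1 alpha and 1 beta subunit that spans the plasma membrane, binds matrix outside the cell and couples through its beta tail to actin or, for beta 4, to keratin filaments. A laminin is a trimer of 1 alpha, 1 beta and 1 gamma chain, and laminins form the network on which a basement membrane is assembled. Laminins are themselves ligands of integrins, and bone-forming cells are known to attach to matrix mainly through integrins that hold beta 1 or alpha V.

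The siRNAs are shown first because an siRNA can also act on other mRNAs through its seed, the bases 2 to 8 of its guide strand, when a 3′ UTR holds the complementary letters. The study lists 3 FUBP1 siRNAs and does not say which was used for sequencing. Their guide strands, 5′ to 3′ with the seed in capitals, are these.
RNAi#1: uAAACUGAaugcgaacacctt
RNAi#2: uAAGAGGUuugucagcacctt
RNAi#3: uUUCUUCUaugaguugccgtt

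Among the genes called changed (adjusted p below 0.05 and a log2 fold change beyond 1 in size), ITGB1, ITGB3, ITGB6 and LAMA4 had a 3′ UTR with a seed match. The sites are given with 8 bases on each side, 5′ to 3′ on the strand of the mRNA, with the 7 bases that pair with the seed in capitals (TCAGTTT for RNAi#1, ACCTCTT for RNAi#2, AGAAGAA for RNAi#3) and GRCh38 positions.
ITGB1, RNAi#1, chr10:32901162-32901184, minus strand: caaatatgTCAGTTTgcagttat
ITGB1, RNAi#2, chr10:32900712-32900734, minus strand: tttctgtcACCTCTTctaatctt
ITGB3, RNAi#2, chr17:47311261-47311283, plus strand: taccttctACCTCTTggctgcct
ITGB3, RNAi#3, chr17:47310999-47311021, plus strand: gtttgtttAGAAGAAgtgtgtca
ITGB6, RNAi#3, chr2:160099840-160099862, minus strand: gaaggtagAGAAGAAtctgctct
LAMA4, RNAi#3, chr6:112108920-112108942, minus strand: tcagtataAGAAGAAtattttag

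Of these 4 genes, ITGB1, ITGB3 and ITGB6 were lower after transfection and LAMA4 was higher. ITGA7, ITGB4, LAMA5, LAMA1 and ITGAD, also called, had no match of these letters in the 3′ UTR used. Across 12608 tested genes with an annotated 3′ UTR, 19.8% held a match for RNAi#1, 12.2% for RNAi#2, 19.4% for RNAi#3 and 36.7% for any of the 3. Among the 29 integrin and laminin genes tested, 7, 5 and 6 held a match for the respective guide and 12 (41.4%) for any. The part of the seeds in the values below was not tested.

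Counts lay between 16309900 and 17484313 per sample, and 16116 genes passed edgeR's expression filter. FUBP1 itself had 3872, 4331 and 4282 reads in siMock replicates 1 to 3 and 749, 752 and 926 reads in siFUBP1 replicates 1 to 3, and its log2 fold change was -2.44 (SE 0.0895, adjusted p = 1.90e-17). Adjusted p-values throughout are from the quasi-likelihood test of edgeR, Benjamini-Hochberg adjusted over all 16116 genes. Of 9 osteoblast lineage markers, COL1A2 and IBSP had 0 reads in every sample, ALPL, SP7, BGLAP and SPP1 stayed at or below 22 reads in any sample, whereas COL1A1 and RUNX2 had enough reads to be tested. The summed level of this list was 124.1 to 131.0 CPM (counts scaled to library size) in siMock and 58.3 to 63.5 CPM in siFUBP1, most of it COL1A1, which was called lower at -1.32. RUNX2, a transcription factor of osteoblasts, went the other way, from 8, 8 and 6 reads in siMock to 73, 97 and 39 in siFUBP1 (log2 fold change 3.15), and SPP1 and BGLAP were also higher in every siFUBP1 sample. Of the mesenchymal markers, LUM had 0 reads and THY1 at most 2 per sample. VIM had 2312 to 2589 reads in siMock and 3146 to 3731 in siFUBP1 (log2 fold change 0.38, adjusted p = 2.10e-04). PDGFRB and FN1 went the other way, at -0.81 (adjusted p = 0.00871) and -0.79 (adjusted p = 6.61e-09). The defining osteoblast markers are thus largely absent, and the cells are called by their label, MG63, below.

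Genes of the 2 families changed in opposite directions within each family. The most abundant integrin beta subunit, ITGB1, and the most abundant laminin alpha chain, LAMA5, both fell by more than 1 on the log2 scale, while LAMA1, an alpha chain of embryonic and some epithelial basement membranes, rose. A gene is said to have risen or fallen when the adjusted p alone was below 0.05. Of the 38 genes, 29 were tested and 9 had too few reads. Called higher were 4 of the 29 (LAMA1, LAMA4 and ITGAD among them), where 8.16% of all tested genes were called higher. Called lower were 6 (ITGB1, ITGB3, ITGB4, ITGB6, ITGA7 and LAMA5), where 9.13% of all tested genes were. Calls in either direction came to 10 of 29, or 34.5%, against a background of 17.3%. By adjusted p alone, 8 rose (background 30.1%), 16 fell (background 30.1%) and 5 did neither. The siMock and siFUBP1 samples did not overlap for 24 of the 29, where this held for 63.9% of all tested genes. The 29 had a median log2 fold change of -0.21, against 0.002 over all genes tested. In bulk RNA, fewer cells carrying a transcript and less of it per cell cannot be told apart.

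**Figure D1:**
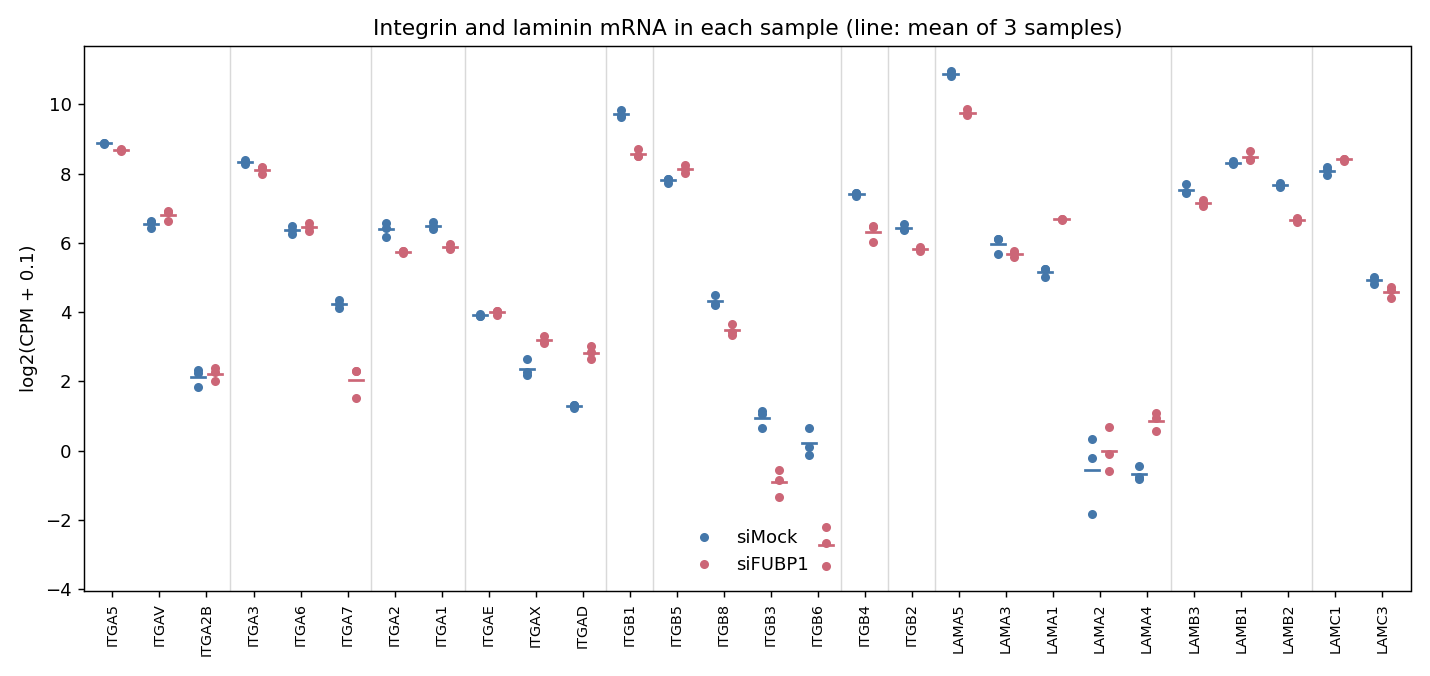
Level of tested integrin and laminin genes in each of the 6 samples, on the vertical axis as log2(CPM + 0.1), with genes ordered by role along the horizontal axis. Points are samples, short lines are means of the 3 samples of siMock (blue) or siFUBP1 (red). LAMA5 and ITGB1 stand highest in siMock and both drop, LAMA1 rises, and ITGB6 lies close to the bottom of the scale in siFUBP1.

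The 4 called beta subunits were all lower. Of 8 genes, 7 were tested, at a median log2 fold change of -1.07. Of these 7, 4 were called lower and none higher, where 9.13% and 8.16% of the 16116 genes were. By adjusted p alone 6 fell and 1 rose, with a background of 30.1% in each direction. The groups did not overlap in 7 of 7, with a background of 63.9%. ITGB1 (ENSG00000150093, chromosome 10, 32900319 to 33005792, GRCh38) encodes beta 1, the partner of 12 alpha subunits. Its reads were 13044, 14173 and 14393 in siMock replicates 1 to 3 and 6155, 6283 and 7382 in siFUBP1 replicates 1 to 3. Every siFUBP1 sample lay far below every siMock sample. The normalized level went from 852 ± 63.1 CPM in siMock to 383 ± 34.4 CPM in siFUBP1 (SD, n = 3 each), which is a log2 fold change of -1.15 (SE 0.0856, adjusted p = 1.17e-11 by edgeR) and 2.22-fold lower. ITGB1 shares 42 of 6011 exonic bases with ITGB1-DT on the opposite strand.

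ITGB4 (ENSG00000132470, chromosome 17, 75721328 to 75757818) encodes beta 4, which pairs with alpha 6 in hemidesmosomes. It had 2848, 2972 and 2535 reads in siMock and 1504, 1537 and 1142 in siFUBP1. No siFUBP1 sample reached the lowest siMock sample, and replicate 3 of siFUBP1 was the lowest of all. Its log2 fold change was -1.07 (SE 0.0954, adjusted p = 1.03e-09 by edgeR). Without siFUBP1 replicate 3 the log2 fold change was -0.94, and after correcting for GC content and length it was -0.76. The call was lost in both. Among epithelial markers, ESRP2 moved in the same direction, from 1163 to 1377 reads in siMock to 510 to 568 in siFUBP1. The 7 epithelial markers summed to 79.1 to 86.3 CPM in siMock and 35.3 to 38.6 CPM in siFUBP1, and KRT5 was at 0. ESRP2 makes up most of that sum, and the other tested markers, CDH1 and EPCAM, were at -0.17 (adjusted p = 0.749 by edgeR) and 0.19 (adjusted p = 0.413). Their part in the result was not tested.

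The remaining beta subunits of the alpha V group, ITGB3, ITGB5, ITGB6 and ITGB8, did not move together. ITGB3 (ENSG00000259207, chromosome 17, 47253846 to 47311816), the beta subunit of the platelet fibrinogen receptor and of the vitronectin receptor, had 24, 34 and 33 reads in siMock and 5, 10 and 8 in siFUBP1. ITGB6 (ENSG00000115221, chromosome 2, 160099666 to 160200313), a subunit of an epithelial integrin that activates latent TGF-beta, had 16, 14 and 23 reads in siMock and 0, 2 and 1 in siFUBP1. Both were scarce, and in both every siFUBP1 sample was below every siMock sample. The log2 fold change was -2.05 for ITGB3 (SE 0.391, adjusted p = 6.55e-05 by edgeR) and -4.06 for ITGB6 (SE 0.675, adjusted p = 1.04e-05). For ITGB6 the 3 reads over the siFUBP1 samples against 53 over the siMock samples give a ratio of 0.0536 per library size, with an exact 95% interval of 0.0107 to 0.165 that covers counting error only. Of its 4394 exonic bases, ITGB3 has 2266 in common with AC068234.1 (same strand, no read counted), and ITGB6 shares 966 of 4687 with AC092153.1, so their counts are uncertain to that extent.

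ITGB5, whose product pairs with alpha V to bind vitronectin, was the beta subunit that rose. It had 3789, 3926 and 3286 reads in siMock and 4737, 5259 and 4521 in siFUBP1. All siFUBP1 samples were above all siMock samples, and the log2 fold change was 0.32 (adjusted p = 0.00105 by edgeR), short of the call. ITGB8, a further subunit that pairs with alpha V and binds latent TGF-beta, went the other way with 308, 313 and 352 reads against 171, 219 and 187, a log2 fold change of -0.84 (adjusted p = 2.41e-06). ITGB2, the beta subunit of the leukocyte integrins, had 1518, 1437 and 1292 reads in siMock and 986, 939 and 984 in siFUBP1, and its log2 fold change was -0.62 (adjusted p = 2.72e-07). ITGB7, the other leukocyte beta subunit, was not tested, with 2 to 13 reads in siMock and 7 to 14 in siFUBP1.

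**Figure D2:**
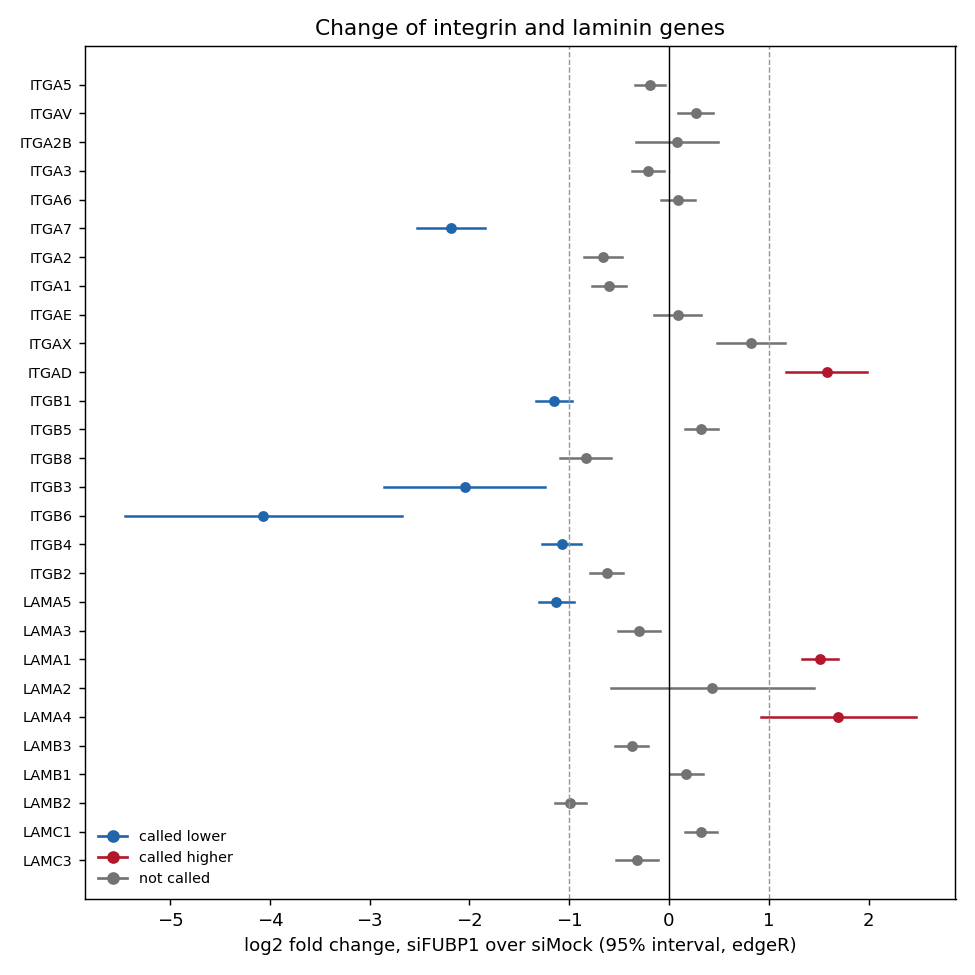
Log2 fold change of siFUBP1 over siMock (horizontal axis) with its 95% interval from edgeR for tested integrin and laminin genes, ordered by role, with dashed lines at 1 and -1. Blue genes were called lower, red genes higher, grey genes neither. The beta subunits lie to the left of 0 except ITGB5, and ITGA7 is the called alpha subunit on that side.

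The alpha subunits were called at about the rate of all genes. Of 18 genes, 11 were tested, and 1 was called higher and 1 lower (18.2%, against 17.3% of all tested genes). By adjusted p alone 3 rose and 5 fell, with a background of 30.1% in each direction. The median log2 fold change was 0.078. ITGA5, the alpha subunit of the main fibronectin receptor and the most abundant alpha subunit per length, had 7565, 7998 and 7431 reads in siMock and 7136, 7147 and 6990 in siFUBP1. The groups did not overlap, but the difference was small, with a log2 fold change of -0.19 (95% interval -0.35 to -0.037, adjusted p = 0.0302 by edgeR). That adjusted p exceeded 0.05 on leaving out any sample except siMock replicate 1, with values from -0.21 to -0.17. ITGAV, the alpha V subunit, which also recognises the Arg-Gly-Asp motif, had 1407, 1665 and 1535 reads in siMock and 1680, 2060 and 2126 in siFUBP1. It rose by a log2 fold change of 0.27 (adjusted p = 0.00900), and without siMock replicate 1 or without siFUBP1 replicate 3 the adjusted p was 0.0613 and 0.0530 at log2 fold changes of 0.20 and 0.21. ITGA2B, the platelet alpha subunit, had 54 to 81 reads in siMock and 68 to 87 in siFUBP1, with overlapping groups and a log2 fold change of 0.078 (95% interval -0.33 to 0.49). ITGA8 had 0 reads in all 6 samples, which allows up to 0.0298 CPM from 3 counts over the 6 samples. Of 5 platelet markers, PF4, PPBP and GP9 were at 0, and the list summed to 3.20 to 3.92 CPM in siMock and 5.38 to 5.82 CPM in siFUBP1. Most of that sum was GP1BA, with 41, 50 and 37 reads in siMock and 83, 77 and 74 in siFUBP1. Its log2 fold change was 0.79 (adjusted p = 0.00225 by edgeR), and GP6 was at 0.20 (adjusted p = 0.69).

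Of the 3 alpha subunits that bind laminin, ITGA7 stood apart. ITGA7 (ENSG00000135424, chromosome 12, 55684568 to 55716043), known as the laminin-binding alpha subunit of muscle, had 335, 295 and 290 reads in siMock and 81, 48 and 85 in siFUBP1. Its level went from 18.8 ± 1.60 CPM in siMock to 4.14 ± 1.19 CPM in siFUBP1 (SD, n = 3 each), with no overlap. The log2 fold change was -2.18 (SE 0.165, adjusted p = 1.76e-11 by edgeR), or 4.54-fold lower. Of 5 skeletal muscle markers, MYOD1, MYOG and MYF5 had 0 reads and the list summed to 3.35 to 4.35 CPM in siMock and 2.61 to 3.67 CPM in siFUBP1. Most of that sum was DES, with 65, 52 and 55 reads in siMock and 43, 52 and 58 in siFUBP1 (log2 fold change -0.25, adjusted p = 0.349). ITGA3, a receptor subunit for laminins with an alpha 5 or alpha 3 chain, had 5262, 5697 and 4829 reads in siMock against 4932, 4997 and 4457 in siFUBP1. The groups did not overlap per library size, and the log2 fold change was -0.21 (adjusted p = 0.0224). Without siMock replicate 2 and without siFUBP1 replicate 3 its adjusted p was 0.108 and 0.131, at -0.18 and -0.15. ITGA6, the partner of beta 1 and beta 4, had 1256, 1523 and 1297 reads in siMock and 1383, 1531 and 1678 in siFUBP1. The groups overlapped, and the 95% interval of its log2 fold change ran from -0.079 to 0.26.

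The collagen-binding alpha subunits that were tested both fell. ITGA1 had 1367, 1525 and 1515 reads in siMock and 980, 989 and 1095 in siFUBP1, and ITGA2 had 1175, 1626 and 1350 reads in siMock and 910, 901 and 952 in siFUBP1. In neither gene did the groups overlap. The log2 fold changes were -0.61 for ITGA1 (adjusted p = 5.68e-07 by edgeR) and -0.66 for ITGA2 (adjusted p = 7.13e-07). ITGA1 shares 475 exonic bases with PELO and 571 with AC022133.1, both on the same strand. The log2 fold change of PELO was 0.30. The other collagen-binding subunits were too scarce to test, ITGA10 with 2 to 14 reads and ITGA11 with 0 to 5 reads per sample. ITGA4, which binds fibronectin and VCAM1, had 0 reads in all samples, with the same limit of 0.0298 CPM, and ITGA9 had 3 reads in 1 siMock sample and none elsewhere.

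Among the alpha subunits named for leukocytes, ITGAD was called and ITGAX rose. ITGAD (ENSG00000156886, chromosome 16, 31393312 to 31426505), the alpha D subunit, a partner of beta 2, had 39, 41 and 35 reads in siMock and 119, 138 and 107 in siFUBP1. Its log2 fold change was 1.58 (SE 0.196, adjusted p = 1.21e-07 by edgeR), or 2.99-fold higher. ITGAX, the alpha X subunit, had 77, 104 and 70 reads in siMock and 151, 170 and 148 in siFUBP1, a log2 fold change of 0.83 (adjusted p = 1.15e-04). Both genes had every siFUBP1 sample above every siMock sample, while their beta partner ITGB2 fell. ITGAE, which pairs with beta 7, had 232 to 250 reads in siMock and 261 to 283 in siFUBP1, and per library size the groups overlapped (log2 fold change 0.088, 95% interval -0.15 to 0.32). ITGAL, with 0 to 5 reads per sample, and ITGAM, with 1 to 7, were not tested. Of 8 leukocyte markers, 2 were tested, CD3D, CD3E and MS4A1 were at 0, and PTPRC had at most 2 reads per sample. The list summed to 6.47 to 8.77 CPM in siMock and 2.71 to 4.74 CPM in siFUBP1, mainly through CSF1R, which went from 39 to 70 reads in siMock to 2 to 8 in siFUBP1. NKG7 went the other way, from 1 to 2 reads in siMock to 7 to 15 in siFUBP1. ITGAD shares 146 exonic bases with AC093520.1 on the same strand.

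Laminin chains moved in both directions. Of 12 genes, 11 were tested, and 5 fell by adjusted p alone, where 30.1% of all tested genes did. Of these 5, 1 was called lower, where 9.13% of all tested genes were. LAMA1 and LAMA4 were among the genes called higher, and the median log2 fold change was 0.17. LAMA5 (ENSG00000130702, chromosome 20, 62307955 to 62367312) encodes the alpha 5 chain, the main alpha chain of adult basement membranes. It had 30657, 34156 and 28314 reads in siMock and 15702, 14897 and 14318 in siFUBP1. The highest siFUBP1 sample was far below the lowest siMock sample, and the level went from 1901 ± 100.1 CPM in siMock to 870 ± 55.6 CPM in siFUBP1 (SD, n = 3 each). The log2 fold change was -1.13 (SE 0.0847, adjusted p = 1.44e-11 by edgeR). Once corrected for GC content and length it was -0.66, still below 0 (adjusted p = 7.38e-09) but no longer called. LAMA5 shares 244 of 14291 exonic bases with ADRM1 and 118 with LAMA5-AS1, both on the opposite strand.

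The region upstream of LAMA5 is shown because its transcript is the most GC-rich of the 29 tested genes, at 66.4% GC. In the 250 bases before its start (RefSeq, GRCh38.p14, chr20:62367313-62367562, minus strand, 5′ to 3′) 82.8% of the letters were G or C. Capitals mark the GC box GGGCGG on either strand.
LAMA5 upstream region: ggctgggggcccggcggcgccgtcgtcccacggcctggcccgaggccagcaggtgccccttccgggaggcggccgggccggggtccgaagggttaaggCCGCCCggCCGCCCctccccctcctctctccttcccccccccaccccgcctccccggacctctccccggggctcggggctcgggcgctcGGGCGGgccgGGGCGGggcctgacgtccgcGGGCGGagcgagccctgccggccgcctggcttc
The script found 5 such boxes there. Upstream of ITGB1, which fell by a similar amount, the corresponding 250 bases held 3 boxes at 78.4% GC, although the ITGB1 transcript itself is at 40.0% GC. A further ITGB1 entry in the table, for another start, held 0 boxes at 41.6% GC. Of 35116 upstream regions of this length, 42.6% held at least 1 box, and 26 of the 38 genes had an entry in that table. A match of letters is a description and shows no binding.

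LAMA1 and LAMA4 were the alpha chains that rose. LAMA1 (ENSG00000101680, chromosome 18, 6941744 to 7117814) had 522, 642 and 589 reads in siMock and 1749, 1739 and 1798 in siFUBP1. All siFUBP1 samples were close together and far above siMock, at 102 ± 1.76 CPM against 35.8 ± 3.33 CPM (SD, n = 3 each). The log2 fold change was 1.51 (SE 0.0859, adjusted p = 5.94e-14 by edgeR), or 2.85-fold higher. LAMA1 shares 1641 of 15872 exonic bases with AP002409.1 on the opposite strand, which had at most 2 reads per sample. LAMA4 (ENSG00000112769, chromosome 6, 112108760 to 112254939), an alpha chain of vessels and mesenchymal tissue, was scarce, with 8, 8 and 10 reads in siMock and 31, 35 and 24 in siFUBP1. Its groups did not overlap, and the log2 fold change was 1.70 (SE 0.378, adjusted p = 3.82e-04). LAMA3, the alpha chain of epidermal laminin, had 832, 1182 and 1089 reads in siMock against 885, 941 and 836 in siFUBP1. Its groups overlapped, and at a log2 fold change of -0.30 (adjusted p = 0.0143) its adjusted p rose above 0.05 on leaving out siMock replicate 2 (0.103), siMock replicate 3 (0.0732) or siFUBP1 replicate 3 (0.0613). LAMA2, the muscle alpha chain, had 3, 20 and 12 reads against 14, 26 and 10, with a 95% interval from -0.58 to 1.45.

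No beta chain passed the call, although LAMB2 came close to it. LAMB2 (ENSG00000172037, chromosome 3, 49121114 to 49133118), the beta 2 chain of kidney and neuromuscular basement membranes, had 3448, 3415 and 3058 reads in siMock and 1795, 1794 and 1688 in siFUBP1. The groups were far apart, and the log2 fold change was -0.99 (SE 0.0762, adjusted p = 2.36e-11 by edgeR), so LAMB2 fell just short of the threshold that ITGB4, at -1.07, passed. It was called on leaving out siMock replicate 3 or siFUBP1 replicate 1. LAMB3, the beta chain that joins LAMA3, had 3365, 3022 and 2707 reads against 2419, 2636 and 2357 and fell by 0.37 on the log2 scale (adjusted p = 2.97e-04). LAMB1, which encodes the beta 1 chain, had 5050, 5656 and 4967 reads against 5715, 6921 and 6028. Its groups did not overlap, but the adjusted p was 0.0658 at a log2 fold change of 0.17 (95% interval 0.0077 to 0.34), and it was below 0.05 without siFUBP1 replicate 1 (0.0373). LAMB4 had 1 read in 1 siMock sample.

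LAMC1 rose and LAMC3 fell. LAMC1, the gamma chain of most laminins, had 4040, 4943 and 4336 reads in siMock and 5845, 5686 and 6040 in siFUBP1, and rose by 0.32 on the log2 scale (adjusted p = 0.00100 by edgeR). Every siFUBP1 sample was above every siMock sample. LAMC3 had 526, 513 and 439 reads against 420, 460 and 370, and its log2 fold change was -0.32 (adjusted p = 0.00931), with an adjusted p of 0.0727 without siFUBP1 replicate 3. After correcting for GC content and length LAMC3 was at 0.022 (adjusted p = 0.846), with the sign reversed.

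To compare levels between genes, CPM was divided by the gene length in kilobases. In siMock the order began with ITGB1 at 142 ± 10.5 CPM per kilobase (SD, n = 3) and LAMA5 at 133 ± 7.01 CPM per kilobase, 2 neighbours that did not differ beyond their spread. ITGA5 followed at 62.0 ± 0.819 CPM per kilobase, below both by more than the spread. LAMB3 at 39.6 ± 3.80 and LAMB1 at 39.3 ± 1.45 CPM per kilobase were within their spread of each other, as were ITGA3 at 32.9 ± 1.33 and LAMC1 at 32.4 ± 2.64 CPM per kilobase. In siFUBP1 the first 3 places were again ITGB1 (63.8 ± 5.72 CPM per kilobase), LAMA5 (60.9 ± 3.89) and ITGA5 (54.3 ± 1.46). The distance between ITGB1 and ITGA5 was thus much smaller in siFUBP1 than in siMock. LAMA1 went from place 19 to place 15 and ITGA7 from place 18 to place 24 of the 38. All 38 genes together took 0.556% ± 0.0145 (SD, n = 3) of the counts in siMock and 0.386% ± 0.00794 in siFUBP1.

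Since subunits act in pairs, the levels were also summed by class, as a description with no test. The 12 alpha partners of beta 1 (alpha 1 to alpha 11 and alpha V) summed to 133.4, 141.6 and 138.2 CPM per kilobase in siMock replicates 1 to 3 and 121.0, 121.9 and 119.6 in siFUBP1. Their sum relative to ITGB1 was 0.975 ± 0.0647 (SD, n = 3) in siMock and 1.91 ± 0.179 in siFUBP1, and the groups did not overlap. Alpha partner mRNA was thus close to ITGB1 mRNA in siMock and above it in siFUBP1. Within the summed beta subunits, which went from 217 ± 7.19 to 129 ± 1.59 CPM per kilobase, ITGB1 made up 65.4% ± 2.64 in siMock and 49.6% ± 4.19 in siFUBP1, and ITGB5 16.1% ± 1.38 and 33.9% ± 2.67. ITGA5 kept a like share of the alpha subunits, 43.7% ± 1.03 and 42.8% ± 0.904.

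The laminin classes did not shift alike. Summed alpha chains were at 140 ± 7.27 CPM per kilobase (SD, n = 3) in siMock and 71.1 ± 4.07 in siFUBP1, beta chains at 109 ± 4.10 and 89.8 ± 5.92, and gamma chains at 36.4 ± 2.47 and 43.9 ± 1.06. Gamma chains were the class with a higher sum in siFUBP1. LAMA5 made up 95.2% ± 0.672 of the alpha chains in siMock and 85.6% ± 0.575 in siFUBP1, and LAMA1 1.62% ± 0.151 and 9.09% ± 0.504. LAMA5 remained the main alpha chain in both groups. Within the beta chains LAMB2 went from 27.2% ± 0.115 to 16.6% ± 1.03 and LAMB1 from 36.3% ± 2.26 to 49.3% ± 1.71. The sums and shares of both families use levels without the correction for GC content and length. With that correction the log2 fold change of LAMA5 was -0.66 in place of -1.13.

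**Figure D3:**
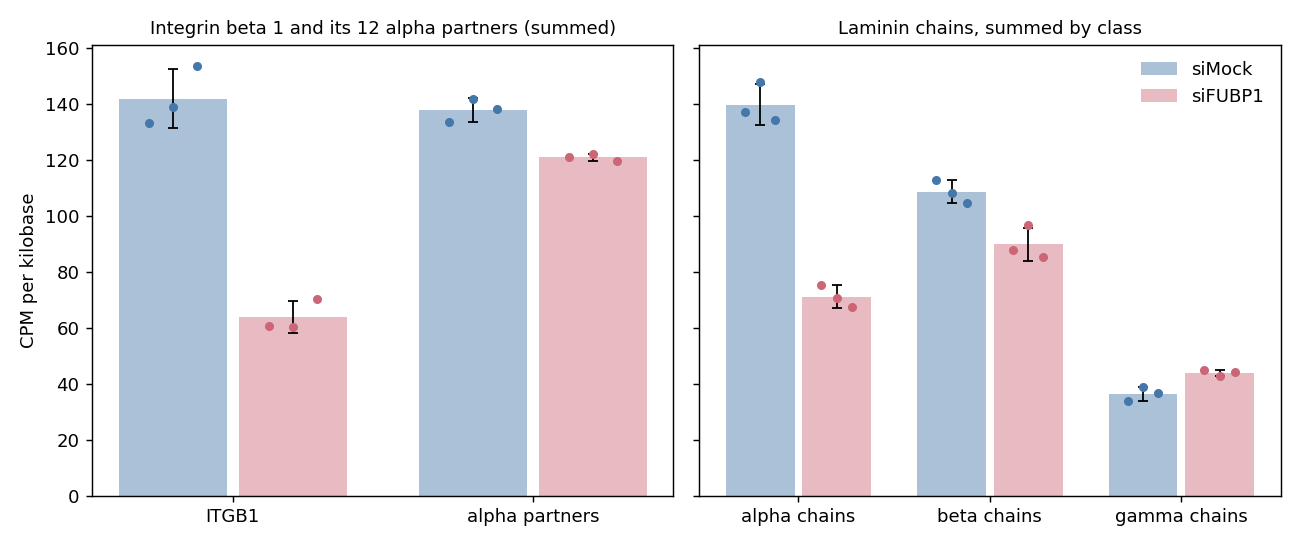
Level in CPM per kilobase of ITGB1 and of its 12 summed alpha partners (left) and of laminin chains summed by class (right) in siMock and siFUBP1. Bars are means, error bars SDs and points the 3 samples of each group. ITGB1 and its partners are level in siMock but not in siFUBP1, where ITGB1 is at 63.8 CPM per kilobase, and laminin alpha chains drop while gamma chains do not.

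Several of these values moved with a correction for the base composition of the transcripts. When a smooth trend on GC content and transcript length was removed from each sample, LAMA5 moved to -0.66 and ITGB4 (63.7% GC) to -0.76, and neither was called. LAMB2 (60.3% GC) moved to -0.73. ITGB1 (40.0% GC) moved to -1.27 and LAMA1 to 1.66, and these and the other 6 called genes remained called. ITGA3 and LAMC3 changed sign, to 0.11 (adjusted p = 0.121 by edgeR) and 0.022 (adjusted p = 0.846). ITGA5 at -0.077 and LAMA3 at -0.16 no longer passed the adjusted p, whereas LAMB1 at 0.21 did (adjusted p = 0.00674). ITGB2 moved to -0.37, LAMB3 to -0.19 and ITGAV to 0.17, each still below an adjusted p of 0.05. A technical trend on GC content and a change of GC-rich transcripts with the knockdown cannot be told apart here.

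**Figure D4:**
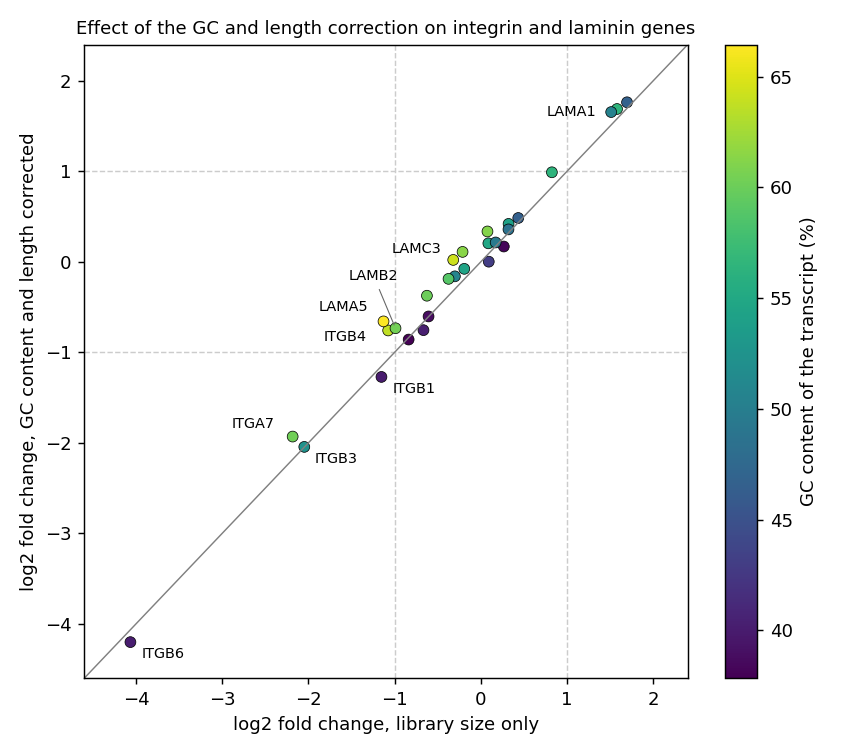
Log2 fold change of tested integrin and laminin genes from library size alone (horizontal axis) and after correcting for GC content and length (vertical axis), coloured by the GC content of the transcript, with the line of equal values and dashed lines at 1 and -1. The GC-rich LAMA5, ITGB4 and LAMB2 lie above the line, at -0.66, -0.76 and -0.73 after correction, and ITGB1 lies below it at -1.27.

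The proteins that link integrins to actin were read from a list of 46 adhesome genes. Of the 44 tested, 1 was called higher and 7 lower (18.2% in all, close to the 17.3% of all tested genes). By adjusted p alone 12 rose and 24 fell, where 30.1% of all tested genes did in each direction. The median log2 fold change was -0.30. VCL, which encodes vinculin, had 7757, 9138 and 8341 reads in siMock and 2140, 2059 and 2435 in siFUBP1, a log2 fold change of -2.01 (adjusted p = 2.31e-16 by edgeR). PARVA, which encodes alpha-parvin, a binding partner of integrin-linked kinase, fell by 1.75 on the log2 scale, and TNS4, a tensin, by 1.78. TNS1, KANK2 and TLN2 were also called lower, at -1.03, -1.01 and -1.01. NEDD9, a docking protein of focal adhesions, was called higher at 1.07. Talin 1 (TLN1), which binds the beta tail, was at -0.19 (adjusted p = 0.0347). With the correction for GC content and length, 4 adhesome genes were called lower, against 7 without it.

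Ligands of integrins other than laminins went in both directions. In a list of 31, 18 were tested, 6 were called higher (8.16% of all tested genes) and 3 lower (9.13% of all), 8 rose and 6 fell (30.1% of all in each direction), and the median log2 fold change was 0.085. CTGF, CYR61 and NOV, matricellular proteins of the CCN family, rose by log2 fold changes of 2.67, 2.25 and 1.74. CYR61 had 504, 491 and 411 reads in siMock and 2160, 2777 and 2108 in siFUBP1. THBS1, which encodes thrombospondin 1, was at 1.99, EDIL3, a ligand of alpha V integrins, at 1.60, and MADCAM1 at 1.13. MADCAM1 was scarce, with 9 to 20 reads in siMock and 18 to 39 in siFUBP1, and its groups overlapped. FBLN5, NPNT and VTN, which encode fibulin 5, nephronectin and vitronectin, were called lower at -2.82, -2.66 and -1.37. Nephronectin had 1671, 1669 and 1795 reads in siMock and 272, 234 and 356 in siFUBP1. FN1, which encodes fibronectin, fell by 0.79 on the log2 scale (adjusted p = 6.61e-09 by edgeR).

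The partners of laminin in the basement membrane, 19 genes of which 17 were tested, had 3 called higher and 2 lower (29.4% in all, against 17.3% of all tested genes), with 5 that rose and 9 that fell (30.1% of all in each direction) and a median of -0.33. COL18A1 and HSPG2, which encode collagen XVIII and perlecan, were called lower at -1.67 and -1.13, and COL4A6, COL17A1 and NTN4 were called higher at 1.51, 1.45 and 1.09. COL17A1 was scarce, with 5 to 22 reads in siMock and 25 to 53 in siFUBP1. 1 of the 2 lower calls was lost with the GC correction and with the replicate number as a block, and 4 genes were called lower without siMock replicate 3. Of 18 genes for other laminin receptors and the enzymes that glycosylate dystroglycan, 15 were tested, 4 were called lower (26.7%, against 9.13% of all tested genes) and none higher, and the median was -0.39. These were B4GAT1, POMGNT2, SDC3 and the Lutheran glycoprotein gene BCAM, at -2.12, -1.19, -1.47 and -1.28, while DAG1 itself, which encodes dystroglycan, was at -0.35. Of 10 membrane proteins that associate with integrins, BSG and CD82 were called lower at -2.47 and -2.03 and none higher, or 2 of 10 called where 17.3% of all tested genes were. BSG, which encodes basigin, had 19241, 16864 and 14692 reads in siMock and 3180, 3033 and 3496 in siFUBP1.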

How the data were processed

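RNA from MG63 cells was sequenced 48 h after transfection, in 3 siMock and 3 siFUBP1 samples, grouped by their labels. The authors deposited 1 table with unnormalized read counts per gene. The submitters' processing notes name HISAT2 2.0.5, StringTie 1.3.3b, featureCounts 1.5.0-p3 and DESeq2 1.16.1 without roles, and a use of strand is not given in the sources used here. The FPKM values that the authors deposited were not used. Neither were the authors' own comparison columns, which hold signal (group means), log2 fold changes and p-values. All 58735 identifiers, starts, ends and strands match GENCODE release 29 (Ensembl 94, GRCh38).

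Differences between the groups were tested on the counts by edgeR 4.0.16 (R 4.3.3) with TMM scaling, its expression filter given the group, a robust quasi-likelihood fit and Benjamini-Hochberg adjustment over 16116 genes. TMM factors were 0.959 to 1.05, the common dispersion 0.00684, and total counts 16309900 to 17484313. No columns were identical, and replicates differed by more than sampling noise (chi-square per gene of at least 5.87). With 3 samples against 3, the smallest two-sided p of an exact permutation test is 0.10. Intervals of counts and limits from 0 reads hold for counting error alone. Simulated counts with 200 changed genes among 15859 tested were used as a check, of which edgeR recovered 98.5% with 1 false call, and DESeq2 recovered 98% with 0 false calls among 16116. With a GC trend added to the simulation (15845 genes), the correction for GC content and length (loess span 0.3, fitted where the mean count was 50 or more) recovered 100% with 0 false calls, against 755 false calls without it. That trend was linear and put into the siFUBP1 samples only. Every simulated gene had the common dispersion, and changed genes were drawn without regard to GC content. The simulation therefore cannot show how the correction treats a real change of GC-rich transcripts or scarce genes.

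Alternatives were DESeq2's size factors, DESeq2 1.42.0, other filters, the GC correction, a replicate block and the omission of each sample in turn. Seed matches were sought in the 3′ UTR of 1 GENCODE transcript per gene, and upstream regions came from RefSeq. The 38 genes and the marker and partner lists were chosen with earlier results of these data known. The results of 1 gene of the 2 families and of 2 genes of the lists are not reported here, and every other gene of the families is accounted for. Reads are given per sample for called genes, the most abundant gene of each role and genes whose groups do not overlap, and called genes are named from the partner lists. CPM uses TMM-scaled library sizes. Values per kilobase use the deposited gene length.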

Additional observations from a re-analysis of the deposited data

How the results depend on the processing

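Over 13 alternatives the integrin and laminin genes gave 372 values, of which 343 kept their direction and their side of the threshold of adjusted p, 18 lost that side, 4 gained it and 7 changed sign. Of the 10 called genes, 8 stayed called wherever they were tested, while LAMA5 and ITGB4 lost the call as given above. The number called higher was 4 except for 2 with a filter at a mean of 50 counts, which tests fewer genes. The number called lower was 6, and 4 with that filter or with the GC correction, and 5 to 7 on leaving out single samples. Signs changed for ITGA3 (0.11 with the GC correction, 0.11 with the replicate block as well), LAMC3 (0.022 and 0.021), ITGA2B (-0.066 to 0.19 on leaving out single samples) and LAMA2 (-0.022 to 1.03, with -0.021 without siFUBP1 replicate 2). ITGA2B and LAMA2 passed no threshold. Among all genes, 731 were called higher and 931 lower with the filter at 50 counts, which tests fewer genes. The adhesome list had 4 genes called lower with the GC correction, with or without the block, and 1 to 2 called higher and 5 to 7 lower on leaving out single samples. The basement membrane list had 1 called lower with the GC correction, with the block or with both, and 2 to 4 on leaving out single samples. The cause of these moves was not tested.

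The replicate numbers were not taken to pair the samples, since correlations of same-numbered deviations were 0.0284, 0.0549 and 0.249 and not every sample correlated best with its own number. With the replicate number as a block, 4 integrin and laminin genes were called higher and 6 lower, and 1324 and 1469 of all genes, and LAMB1 reached an adjusted p of 0.0213 by edgeR at a log2 fold change of 0.17. Depth limits ITGB3, ITGB6 and LAMA4, whose reads stayed at or below 35 per sample, and the 9 untested genes.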

Other observations

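Transcripts that lie next to LAMA5, ITGB1 and ITGB2 were chosen after their values had been seen. LAMA5-AS1, which overlaps LAMA5 on the opposite strand, had 29, 37 and 30 reads in siMock and 61, 65 and 71 in siFUBP1, a log2 fold change of 0.96 (adjusted p = 9.68e-04 by edgeR), the opposite direction to LAMA5. ITGB1-DT, the divergent transcript at the start of ITGB1, had 39, 64 and 45 reads in siMock and 93, 93 and 89 in siFUBP1, a log2 fold change of 0.82 (adjusted p = 0.00131), again opposite to its neighbour. Neither passed a log2 fold change of 1. ITGB2-AS1 was at 0.19 (adjusted p = 0.411) with overlapping groups. Whether the counting used the strand is not given in the sources used here, so reads of these transcripts and of the genes they overlap cannot be told apart in the shared bases.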
